A study of Sus scrofa with 12 samples.

Results

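The insulin-like growth factor (IGF) system was followed in smooth muscle cells from porcine (Sus scrofa) coronary artery through 9 genes chosen by symbol: the ligands IGF1 and IGF2, the receptor IGF1R, and the binding proteins IGFBP2, IGFBP3, IGFBP4, IGFBP5, IGFBP6 and IGFBP7. Of the 9, 7 had a row whose Ensembl identifier paired with the symbol, out of 21153 genes in the count table, and all 7 were tested. IGF2 and IGFBP3 are not analysed here.

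RNA was sequenced from primary cultures described as differentiated and contractile. The cells were treated for 4 h with PDGF-BB (30 ng/ml) together with S100A4 protein (1 µg/ml), with PDGF-BB alone at that dose, with S100A4 alone at that dose, or with neither (control). Each of the 4 groups had 3 libraries numbered 1 to 3. All groups shared passages 6 to 11, medium with 10% fetal calf serum, which carries growth factors of its own, and 24 h of culture before treatment, and the study used cells of 3 animals.

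IGF1 and IGF2 are secreted peptides that signal mainly through IGF1R, a receptor tyrosine kinase that recruits insulin receptor substrates and activates the PI3-kinase and AKT pathway, which favours growth and survival. Secreted IGF-binding proteins hold the ligands outside the cell, and proteases such as PAPPA release them by cutting certain binding proteins, IGFBP4 above all. IGF1 is known in arteries as a growth and survival factor for smooth muscle cells, and PDGF-BB, a platelet-derived growth factor made of paired B chains, is a smooth muscle mitogen that acts through its own receptors. S100A4 binds calcium inside cells and can be released to act on their surface.

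Libraries held 21455021 to 32448438 counts, and levels are given as CPM, the count scaled to library size, here with TMM factors. CPM is not corrected for transcript length, so levels are compared between groups within a gene and never between genes. The 8 smooth muscle markers were tested in these cultures and summed to 7920 to 21900 CPM, while epithelial markers had at most 4 counts. Of 7 macrophage markers 3 were tested, among them CD14 with 138 to 249 counts, and PTPRC was at 0 in all 12 libraries. The macrophage sums were 7.89 to 9.57 CPM in PDGF-BB+S100A4, 7.51 to 9.71 CPM in PDGF-BB, 9.05 to 11.1 CPM in S100A4 and 9.34 to 11.9 CPM in control libraries, and their part in the results was not tested. The libraries numbered 2 stood apart: summed fibroblast markers lay at 1060 to 1220 CPM there, against 274 to 483 CPM in the other libraries, and summed smooth muscle markers at 7920 to 9300 CPM, against 17500 to 21900 CPM. Summed pericyte markers were at 312 to 420 CPM there, against 1130 to 1920 CPM. Of the fibroblast markers, TCF21 alone was lower there (mean 16 CPM, against 20.6 and 26.9 CPM in numbers 1 and 3). Of the pericyte markers, CSPG4, NOTCH3 and KCNJ8 were lower there and ABCC9 changed little. RGS5 was higher there (mean 6.57 CPM, against 1.47 and 0.458 CPM). The smooth muscle sums were mostly ACTA2, and each smooth muscle marker was lowest there. TAGLN and MYOCD were low in every library, at 83 to 213 and 71 to 188 counts. Libraries of a number varied together across genes. Results are therefore given from the fit on groups alone, from a fit with replicate number as a block, or from both. In the block fit a library is set against the control library of its own number. All fold changes are edgeR log2 values ± SE with n = 3 libraries per group, and adjusted p-values come from edgeR's quasi-likelihood test with Benjamini-Hochberg adjustment over 12444 genes. The labels do not tie libraries to animals, so the p-values cover only how these libraries varied, which may be technical.

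IGF1R and the binding proteins IGFBP4 and IGFBP5 were the family members with the largest differences from control, all towards lower levels in treated cells. IGF1R was lower in cells that received PDGF-BB, with or without S100A4. IGFBP4 was lowest in the PDGF-BB groups and intermediate with S100A4 alone. IGFBP5 was lower by about the same amount with either protein. With all 12 libraries in edgeR, the IGFBP4 and IGFBP5 differences from control passed only with the replicate block.

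**Figure D1:**
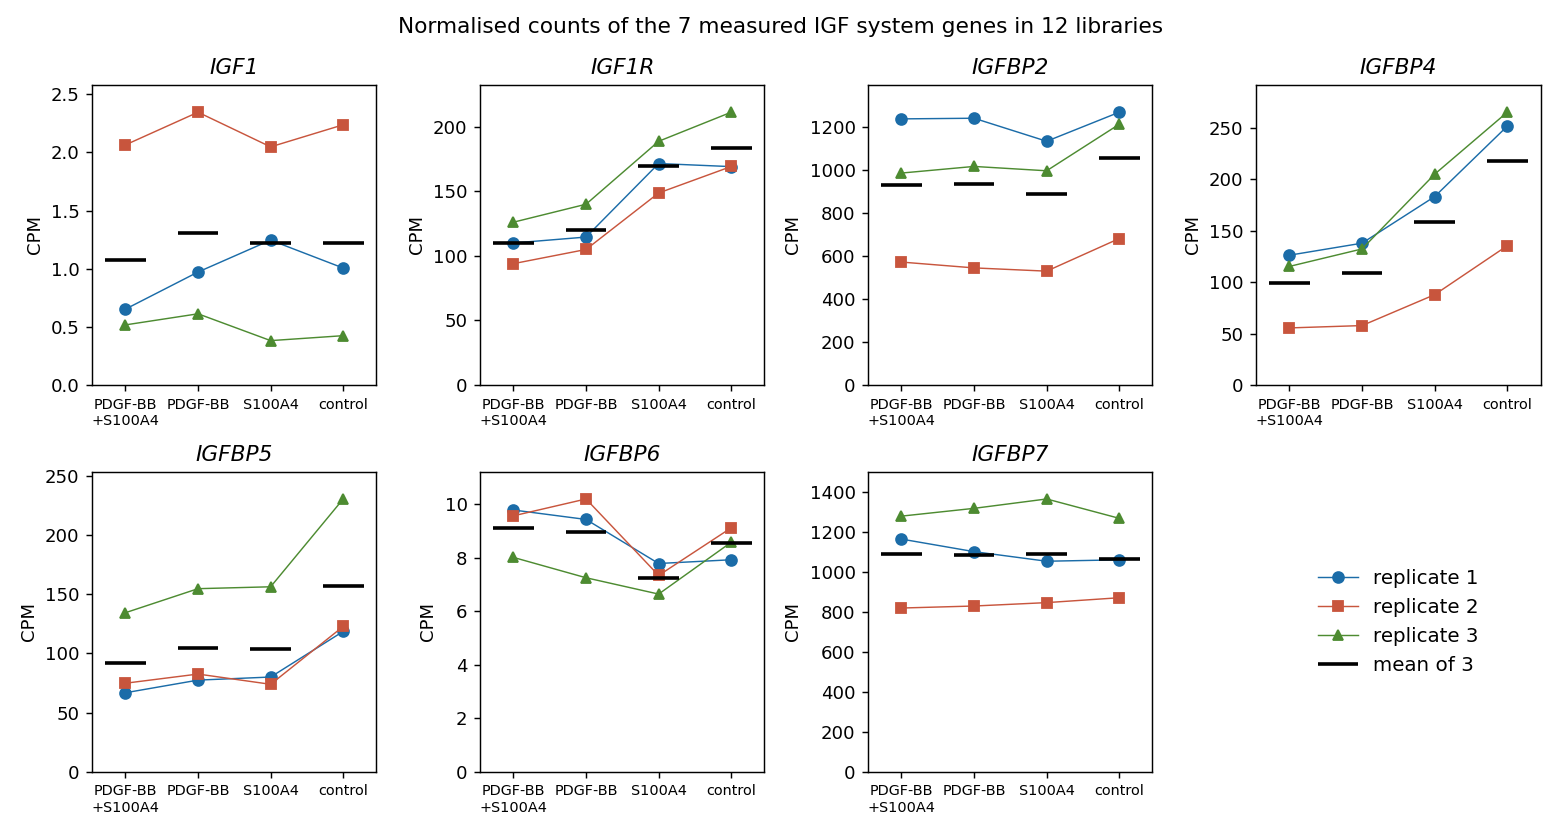
Normalised counts (CPM, vertical axes from 0) of the 7 measured genes in the PDGF-BB+S100A4, PDGF-BB, S100A4 and control groups. Symbols are single libraries joined by replicate number, and bars are means of 3. The lines of IGF1R, IGFBP4 and IGFBP5 climb towards control in each replicate number, apart from small steps between neighbouring groups, whereas those of IGF1 and IGFBP7 stay apart by number.

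The ligand gene IGF1 (ENSSSCG00000000857; RefSeq, Sscrofa11.1, chr5:81762027-81909253) was scarce, with 9 to 72 counts per library. Its level was 0.653, 2.07 and 0.517 CPM in PDGF-BB+S100A4 libraries 1 to 3 and 0.972, 2.35 and 0.613 CPM in PDGF-BB libraries. It was 1.25, 2.05 and 0.382 CPM in S100A4 libraries, against 1.01, 2.24 and 0.424 CPM in control libraries. All groups overlapped, and the libraries numbered 2 were highest in every group. With the block its log2 difference from control was −0.18 ± 0.23 for PDGF-BB+S100A4, 0.11 ± 0.22 for PDGF-BB and −0.00 ± 0.23 for S100A4, none of which passed in edgeR (adjusted p = 0.53, 0.71 and 1). On groups alone none passed either. The 95% interval for PDGF-BB was −0.36 to 0.58 with the block and −1.7 to 1.87 on groups alone. Changes within those bounds were compatible with the counts in the respective fit. The number 2 libraries that were high in IGF1 were also those high in fibroblast markers, and the part of those markers in the IGF1 level was not tested.

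IGF1R (ENSSSCG00000030560; chr1:137383623-137691038), the receptor that both ligands activate, was at 109.9, 93.9 and 126 CPM in PDGF-BB+S100A4 libraries 1 to 3. It was at 114.5, 105 and 139.9 CPM in PDGF-BB libraries and at 171, 149 and 189 CPM in S100A4 libraries, against 169, 169 and 211 CPM in control libraries. Every library with PDGF-BB was below every library without it, with no overlap. The share of all tested genes without overlap was not counted, here or for the members below. IGF1R fell by 0.74 on the log2 scale with PDGF-BB+S100A4 (± 0.15, 1.67-fold lower, adjusted p = 0.0065) and by 0.61 with PDGF-BB (± 0.15, 1.53-fold lower, adjusted p = 0.022). It was also lower with PDGF-BB+S100A4 than with S100A4 alone (−0.63 ± 0.15, adjusted p = 0.02).

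S100A4 alone did not pass for IGF1R against control (−0.11 ± 0.15, adjusted p = 1, and −0.11 ± 0.05, adjusted p = 0.16 with the block), nor did PDGF-BB+S100A4 against PDGF-BB (−0.12 ± 0.15, adjusted p = 1, and 0.15 with the block). In edgeR with TMM scaling and all 12 libraries, PDGF-BB against S100A4 passed only with the block (−0.50 ± 0.15, adjusted p = 0.062, and −0.51 ± 0.05, adjusted p = 1.2e-06 with the block). Without the block it passed with DESeq2 (−0.512 ± 0.165, DESeq2 adjusted p = 0.016) and with upper-quartile scaling (−0.532 ± 0.149, edgeR adjusted p = 0.047). From low to high the means were 109.9 ± 16.0 CPM with PDGF-BB+S100A4, 119.8 ± 18.1 CPM with PDGF-BB, 169.5 ± 20.1 CPM with S100A4 and 183 ± 24.3 CPM in control cells (SD), and neither fit told the first pair or the last pair apart.

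On groups alone some IGF1R calls were lost when libraries were left out, with log2 changes of similar size. The number of all genes called also moved widely in those fits. It ran from 131 to 2139 for PDGF-BB against control and from 502 to 3349 for PDGF-BB+S100A4 against control. For PDGF-BB against control, edgeR's adjusted p was 0.087 without control replicate 3 (log2 change −0.50), 0.08 without PDGF-BB replicate 1 (−0.58) and 0.079 without PDGF-BB replicate 2 (−0.53). It was 0.3 without all libraries numbered 1 (−0.63) and 0.057 without those numbered 3 (−0.62). PDGF-BB+S100A4 against control was lost only without the libraries numbered 1 (−0.79, adjusted p = 0.14). The receptor's fall kept its call in 15 of 15 such fits with the block in both comparisons.

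IGFBP2 (ENSSSCG00000035392; chr15:118822092-118850985) and IGFBP5 (ENSSSCG00000025924; chr15:118861816-118877787) lie next to each other, 10830 bases apart with 0 annotated RefSeq genes between them. IGFBP2 is an abundant binding protein of many cultured cells. It was at 1237, 572 and 985 CPM in PDGF-BB+S100A4 libraries 1 to 3, at 1240, 544 and 1016 CPM in PDGF-BB libraries and at 1133, 529 and 996 CPM in S100A4 libraries, against 1268, 681 and 1212 CPM in control libraries. The groups overlapped, and libraries numbered 2 were low throughout, but each treated library was below the control library of its number.

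On groups alone IGFBP2 did not pass against control, with −0.18 ± 0.41 for PDGF-BB+S100A4, −0.17 ± 0.41 for PDGF-BB and −0.25 ± 0.41 for S100A4 (edgeR adjusted p = 0.83, 0.87 and 1). With the block it fell in all 3 comparisons, by 0.20 ± 0.05 with PDGF-BB+S100A4 (1.15-fold lower, adjusted p = 0.0037), by 0.20 ± 0.05 with PDGF-BB (1.15-fold lower, adjusted p = 0.0035) and by 0.27 ± 0.05 with S100A4 (1.21-fold lower, adjusted p = 0.0025). Replicate pair 1 carried little of the change with PDGF-BB: its same-number difference was −0.04 with PDGF-BB+S100A4 and −0.03 with PDGF-BB. With the block, PDGF-BB against control was lost without the libraries numbered 2 (−0.12, adjusted p = 0.053) or 3 (−0.18, adjusted p = 0.057), and PDGF-BB+S100A4 against control without those numbered 3 (−0.15, adjusted p = 0.095). The S100A4 call was kept in 15 of 15 fits.

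IGFBP4 (ENSSSCG00000017472; chr12:21966524-21980043), a binding protein that mainly inhibits IGF action and is the best known substrate of PAPPA, was at 126, 55.6 and 115 CPM in PDGF-BB+S100A4 libraries 1 to 3. It was at 138, 57.8 and 132 CPM in PDGF-BB libraries and at 183, 87.9 and 205 CPM in S100A4 libraries, against 252, 135.5 and 265 CPM in control libraries. Libraries numbered 2 held the lowest value of each group. PDGF-BB+S100A4 did not overlap with control, whereas PDGF-BB and S100A4 each did, through control replicate 2.

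Within replicate numbers the decline of IGFBP4 was ordered alike: in all 3 numbers PDGF-BB+S100A4 was lowest, PDGF-BB next, S100A4 above it and control highest. On groups alone none of the changes from control passed: −1.14 ± 0.45 for PDGF-BB+S100A4 (edgeR adjusted p = 0.11), −0.99 ± 0.45 for PDGF-BB (adjusted p = 0.19) and −0.45 ± 0.45 for S100A4 (adjusted p = 1). With the block IGFBP4 fell by 1.16 ± 0.06 with PDGF-BB+S100A4 (2.23-fold lower, adjusted p = 4.1e-09), by 1.03 ± 0.06 with PDGF-BB (2.04-fold lower, adjusted p = 2.4e-08) and by 0.48 ± 0.06 with S100A4 (1.4-fold lower, adjusted p = 0.00014). All 3 calls were kept in 15 of 15 fits with libraries left out. Without the libraries numbered 2, the fit on groups alone also called IGFBP4 for PDGF-BB+S100A4 (−1.09 ± 0.08, adjusted p = 4e-04) and PDGF-BB (−0.92 ± 0.08, adjusted p = 0.0012), but not for S100A4 (−0.40 ± 0.08, adjusted p = 0.1).

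Between treatments, IGFBP4 was lower with PDGF-BB+S100A4 than with S100A4 (block −0.68 ± 0.06, adjusted p = 1.3e-06; 0.39 on groups alone) and lower with PDGF-BB than with S100A4 (block −0.55 ± 0.06, adjusted p = 9.4e-06; 0.57 on groups alone). PDGF-BB+S100A4 and PDGF-BB were not told apart in edgeR (block −0.13 ± 0.06, adjusted p = 0.27, 95% interval −0.27 to 0.01), although all 3 same-number differences were negative.

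IGFBP5, a binding protein that also attaches to extracellular matrix and can either hold back or favour IGF action, was at 66.8, 74.8 and 134 CPM in PDGF-BB+S100A4 libraries 1 to 3. It was at 77.5, 82.6 and 155 CPM in PDGF-BB libraries and at 80.1, 73.9 and 156 CPM in S100A4 libraries, against 119, 123 and 230.5 CPM in control libraries. Libraries numbered 3 were highest in each group, and their treated values lay above control libraries 1 and 2, so that every group overlapped with control. Within each number all 3 treated libraries were below control.

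IGFBP5 did not pass on groups alone, with −0.77 ± 0.42 for PDGF-BB+S100A4, −0.58 ± 0.42 for PDGF-BB and −0.61 ± 0.42 for S100A4 (edgeR adjusted p = 0.24, 0.45 and 1). With the block it fell by 0.77 ± 0.05 with PDGF-BB+S100A4 (1.71-fold lower, adjusted p = 1.7e-08), by 0.59 ± 0.05 with PDGF-BB (1.5-fold lower, adjusted p = 3.6e-07) and by 0.62 ± 0.05 with S100A4 (1.53-fold lower, adjusted p = 1.2e-06). These 3 calls were kept in 15 of 15 fits with libraries left out. The separate treatments were close to each other (PDGF-BB against S100A4, block 0.03 ± 0.05, adjusted p = 0.66, 95% interval −0.08 to 0.14).

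IGFBP6 (ENSSSCG00000000261; chr5:18352884-18357225), a binding protein that prefers IGF2, was at 9.79, 9.57 and 8.02 CPM in PDGF-BB+S100A4 libraries 1 to 3 and at 9.43, 10.2 and 7.25 CPM in PDGF-BB libraries. It was at 7.79, 7.34 and 6.64 CPM in S100A4 libraries, against 7.93, 9.12 and 8.58 CPM in control libraries. The S100A4 libraries lay below all control and all PDGF-BB+S100A4 libraries. Against control nothing passed in either fit: with the block the values were 0.10 ± 0.10 for PDGF-BB+S100A4, 0.07 ± 0.10 for PDGF-BB and −0.23 ± 0.10 for S100A4 (edgeR adjusted p = 0.45, 0.62 and 0.19). IGFBP6 was the measured member that was higher in a comparison between treatments: with the block it was higher with PDGF-BB+S100A4 than with S100A4 (0.33 ± 0.10, 1.26-fold, adjusted p = 0.018; 0.17 on groups alone) and higher with PDGF-BB than with S100A4 (0.30 ± 0.10, 1.23-fold, adjusted p = 0.029; 0.23 on groups alone).

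The IGFBP6 differences did not hold throughout. With DESeq2 and the block the adjusted p was 0.056 for PDGF-BB+S100A4 against S100A4 and 0.086 for PDGF-BB against S100A4. With libraries left out, edgeR lost the comparison of PDGF-BB+S100A4 with S100A4 without PDGF-BB+S100A4 replicate 1 (0.29, adjusted p = 0.076), S100A4 replicate 2 (0.26, adjusted p = 0.095), or all libraries numbered 1 (0.32, adjusted p = 0.082) or 2 (0.30, adjusted p = 0.067). PDGF-BB against S100A4 was lost without PDGF-BB replicate 1 (0.28, adjusted p = 0.097) or 2 (0.23, adjusted p = 0.15), S100A4 replicate 2 (0.23, adjusted p = 0.14) or 3 (0.32, adjusted p = 0.063), or all libraries numbered 1 (0.31, adjusted p = 0.093) or 2 (0.21, adjusted p = 0.2).

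IGFBP7 (ENSSSCG00000008913; chr8:56283089-56357822), a related protein that binds IGFs with low affinity, was at 1166, 821 and 1281 CPM in PDGF-BB+S100A4 libraries 1 to 3 and at 1103, 831 and 1320 CPM in PDGF-BB libraries. It was at 1055, 848 and 1367 CPM in S100A4 libraries, against 1062, 872 and 1270 CPM in control libraries. The groups overlapped fully, and only the replicate numbers stood apart. No comparison passed in either edgeR fit. With the block the 95% interval of the log2 difference from control was −0.08 to 0.12 for PDGF-BB+S100A4, −0.08 to 0.11 for PDGF-BB and −0.08 to 0.12 for S100A4. On groups alone the intervals were wider, at −0.51 to 0.57, −0.52 to 0.56 and −0.51 to 0.57.

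**Figure D2:**
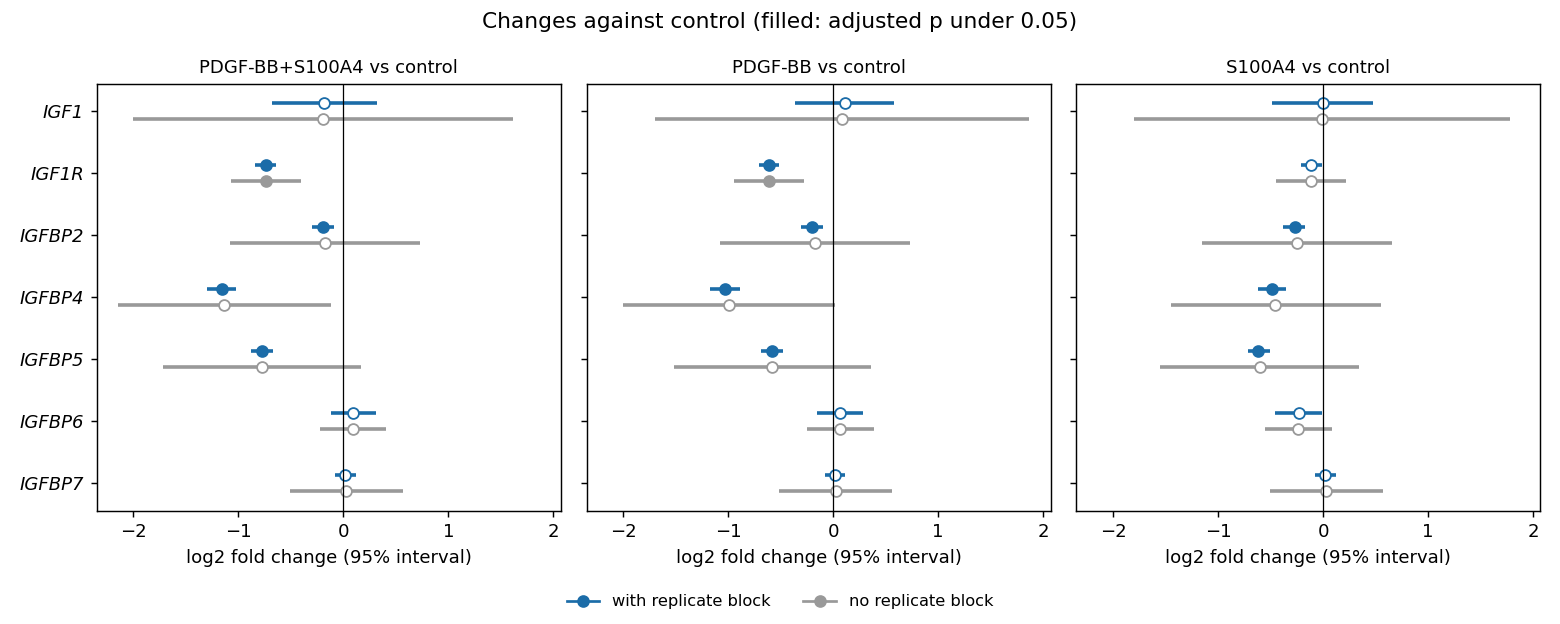
Log2 fold changes against control (horizontal axes) with 95% intervals for the 7 genes under PDGF-BB+S100A4, PDGF-BB and S100A4, from edgeR with the replicate block (blue) and without it (grey). Filled points had an adjusted p under 0.05. Both fits put the points in nearly the same place. The intervals are far narrower with the block in all genes but IGFBP6, where they are somewhat narrower.

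Counted over the family, PDGF-BB+S100A4 lowered 1 of 7 members against control on groups alone (IGF1R), where 22% of all tested genes were called, and 4 of 7 with the block (IGF1R, IGFBP2, IGFBP4 and IGFBP5), where 56.1% were. PDGF-BB lowered 1 of 7 (14.7% of all genes) and, with the block, the same 4 of 7 (48.8%). S100A4 changed 0 of 7 on groups alone in edgeR (0.563% of all genes, 0 members at an unadjusted p under 0.05 and 0 by DESeq2) and lowered 3 of 7 with the block, IGFBP2, IGFBP4 and IGFBP5 (10.7%). With 7 genes, the family's count under PDGF-BB was close to the share of all genes called, while under S100A4 with the block it was 3 of 7 beside 10.7%. That share rested on 1336 called genes, a number that ran from 608 to 1521 with libraries left out and fell by more than 1.5 times without control replicate 3, S100A4 replicate 1 or 2, or all libraries numbered 1 or 3. No member was called higher than control in either fit. The median log2 change of the 7 with the block was −0.20 for PDGF-BB+S100A4, −0.20 for PDGF-BB and −0.23 for S100A4, beside −0.03, −0.02 and −0.02 over all tested genes. The 3 comparisons share the control libraries, so they do not repeat each other independently.

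Between treatments, PDGF-BB+S100A4 against PDGF-BB called 0 of 7 on groups alone in edgeR (0.273% of all genes, 0 members at an unadjusted p under 0.05 and 0 by DESeq2). With the block 1 of 7 was lower, IGFBP5 (7.14% of all genes). PDGF-BB+S100A4 against S100A4 called 1 of 7, IGF1R lower (15% of all genes). With the block it called IGF1R, IGFBP4 and IGFBP5 lower and IGFBP6 higher (47.8%). PDGF-BB against S100A4 called 0 of 7 in edgeR (11.1% of all genes, 1 member at an unadjusted p under 0.05 and 1 by DESeq2, in each case IGF1R). With the block IGF1R and IGFBP4 were lower and IGFBP6 was higher (43.1%).

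The joint treatment was also set against the sum of the separate log2 changes, which is the same as asking whether S100A4 acts differently when PDGF-BB is present. For IGF1R the combined change (block −0.74) was close to the sum (−0.73), with an interaction of −0.01 ± 0.07 (edgeR adjusted p = 0.96, 95% interval −0.15 to 0.13). IGFBP5 fell by 0.77 with both proteins, against a sum of −1.21, and its interaction of 0.43 ± 0.07 passed with the block (edgeR adjusted p = 0.028). All 3 replicate pairs had this sign, with 0.35, 0.59 and 0.36. IGFBP4 (0.35 ± 0.09, adjusted p = 0.19) and IGFBP2 (0.28 ± 0.07, adjusted p = 0.18) had the same sign in all 3 pairs and did not pass.

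**Figure D3:**
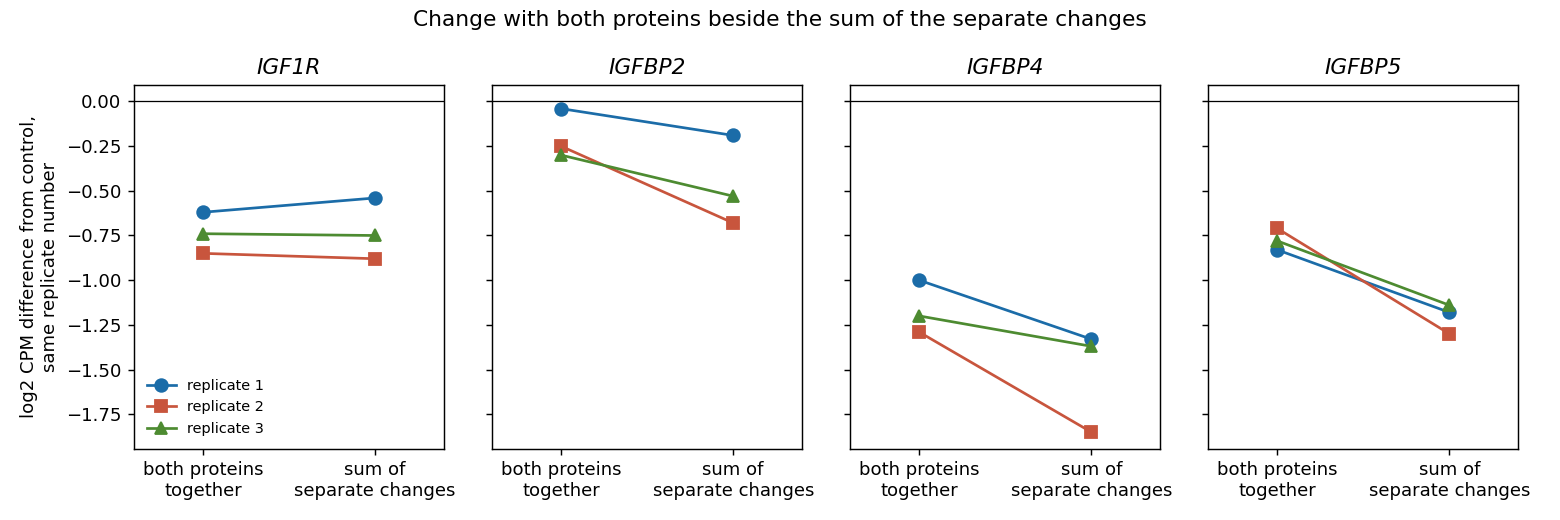
Log2 CPM difference from the control library of the same replicate number (vertical axis) for PDGF-BB+S100A4 and for the sum of the PDGF-BB and S100A4 differences, in IGF1R, IGFBP2, IGFBP4 and IGFBP5. Lines join values of a replicate number. IGFBP5 lies at −0.71 to −0.83 with both proteins and at −1.14 to −1.30 for the sum, while the IGF1R lines are nearly level.

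The interaction was called for 1 of 7 members with the block, where 0.113% of all tested genes were called (14 genes, 2 of them positive, IGFBP5 and TM4SF1), and for 0 of 7 on groups alone, where 0% were (152 genes at an unadjusted p under 0.05 but 0 members, and 0 members by DESeq2). With the block, 1 to 117 of all genes were called as libraries were left out, and the number moved by over 1.5 times except without control replicate 1, PDGF-BB replicate 2 or S100A4 replicate 2. The IGFBP5 interaction was not stable to the choice of libraries. With the block, edgeR's adjusted p was 0.057 without control replicate 1 (0.43), 0.095 without control replicate 3 (0.44), 0.13 without PDGF-BB replicate 1 (0.42), 0.11 without PDGF-BB replicate 3 (0.43) and 0.12 without PDGF-BB+S100A4 replicate 3 (0.45). It was 0.055 without S100A4 replicate 1 (0.46), 0.091 without S100A4 replicate 3 (0.46), 0.29 without all libraries numbered 1 (0.46) and 0.67 without those numbered 3 (0.47). Its size stayed between 0.34 and 0.47 in the 15 fits.

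IGFBP5 was also lower with PDGF-BB+S100A4 than with each protein alone under the block, by small amounts. Against PDGF-BB the difference was −0.19 ± 0.05 (1.14-fold lower, adjusted p = 0.036), negative in all 3 pairs. Against S100A4 it was −0.16 ± 0.05 (1.11-fold lower, adjusted p = 0.019), with 0.02 in pair 2. The comparison with PDGF-BB was lost in edgeR without control replicate 3 (−0.19, adjusted p = 0.052), PDGF-BB replicate 1 (−0.20, adjusted p = 0.087), 2 (−0.17, adjusted p = 0.13) or 3 (−0.19, adjusted p = 0.1), PDGF-BB+S100A4 replicate 1 (−0.16, adjusted p = 0.16) or 3 (−0.17, adjusted p = 0.18), or all libraries numbered 1 (−0.18, adjusted p = 0.24) or 3 (−0.18, adjusted p = 0.3). The comparison with S100A4 was lost without PDGF-BB+S100A4 replicate 1 (−0.13, adjusted p = 0.09) or 3 (−0.14, adjusted p = 0.085), S100A4 replicate 1 (−0.13, adjusted p = 0.09) or 3 (−0.13, adjusted p = 0.11), or all libraries numbered 1 (−0.11, adjusted p = 0.21) or 3 (−0.12, adjusted p = 0.22).

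The 7 genes differed in how much of their variation went with treatment. In log2 CPM, the treatment group held 79.5% of the sum of squares for IGF1R, 43.7% for IGFBP4 and 29.6% for IGFBP5, and 46% for IGFBP6. It held 4.44% for IGFBP2, 1.59% for IGF1 and 0.0878% for IGFBP7, where replicate number held 94.4%, 93.1% and 97.1%. The median over all tested genes was 36.9% for group and 40.9% for replicate number. IGF1 was highest in libraries numbered 2 (mean 2.17 CPM, n = 4), against 0.969 CPM in those numbered 1 and 0.484 CPM in those numbered 3. IGFBP2 (582 CPM), IGFBP4 (84.2 CPM) and IGFBP7 (843 CPM) were lowest in libraries numbered 2. IGFBP5 was highest in those numbered 3 (169 CPM, against 85.7 and 88.5 CPM in those numbered 1 and 2).

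**Figure D4:**
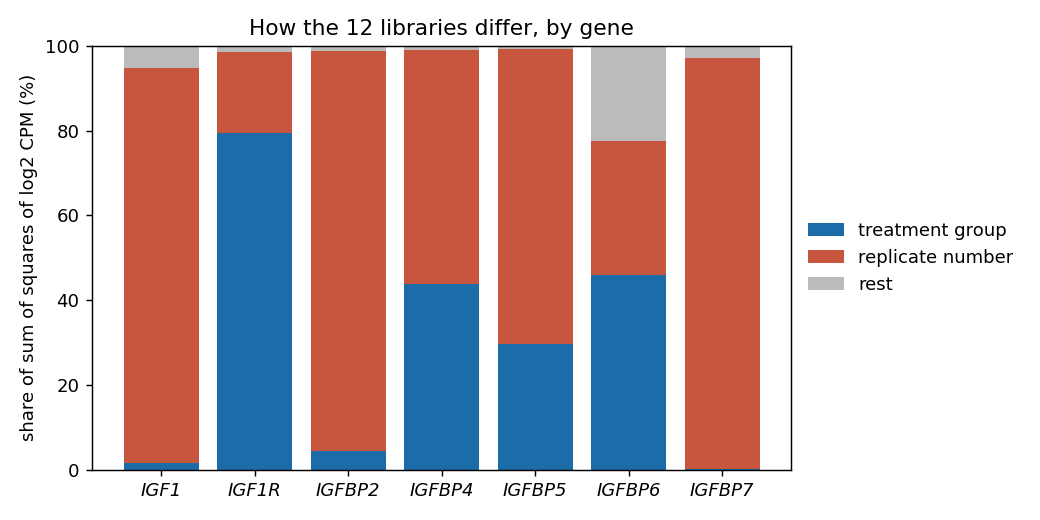
Share of the sum of squares of log2 CPM over 12 libraries (stacked bars, in percent) that goes with treatment group, replicate number or neither, for each gene. The treatment share runs from 0.0878% in IGFBP7 to 79.5% in IGF1R.

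The libraries numbered 2, in which IGF1 was highest and IGFBP2, IGFBP4 and IGFBP7 lowest, had the highest fibroblast and the lowest smooth muscle and pericyte sums. Their endothelial sums were also high, at 140 to 220 CPM, against 55.3 to 133 CPM in those numbered 1 and 79.3 to 157 CPM in those numbered 3. IGFBP5, alike in numbers 1 and 2, did not follow these sums. The part of the markers in the levels of IGF1, IGFBP2, IGFBP4 and IGFBP7 was not tested, and in cultures measured in bulk, fewer cells of a type and less RNA per cell cannot be told apart. By treatment group, sums of the 7 fibroblast markers, all tested, covered nearly the same range, at 274 to 1090 CPM in PDGF-BB+S100A4, 291 to 1060 CPM in PDGF-BB, 284 to 1180 CPM in S100A4 and 274 to 1220 CPM in control libraries. Of 7 endothelial markers 5 were tested, KDR had at most 4 counts, and their sums were 133 to 208 CPM in PDGF-BB+S100A4, 121 to 220 CPM in PDGF-BB, 59.6 to 150 CPM in S100A4 and 55.3 to 140 CPM in control libraries. The factor ERG made up most of these sums, at 72.3 to 107 CPM as means per replicate number. Sums of the 5 pericyte markers, all tested and mostly CSPG4 and NOTCH3, were 388 to 1800 CPM in PDGF-BB+S100A4, 420 to 1920 CPM in PDGF-BB, 312 to 1500 CPM in S100A4 and 319 to 1490 CPM in control libraries. The higher endothelial and pericyte sums go with the same groups as the lower IGF1R and IGFBP4, and their part in them was not tested. Smooth muscle sums were 7920 to 19200 CPM in PDGF-BB+S100A4 and 8020 to 19900 CPM in PDGF-BB libraries. With S100A4 they were 7920 to 18700 CPM, against 9300 to 21900 CPM in control libraries. These lower ranges go with the same groups as lower IGFBP2, IGFBP4 and IGFBP5 under the block. Their part in those levels was not tested. Without the libraries numbered 2 the block fit gave −0.68 for IGF1R, −1.09 for IGFBP4 and −0.79 for IGFBP5 with PDGF-BB+S100A4, −0.56, −0.92 and −0.57 with PDGF-BB, and −0.06, −0.40 and −0.56 with S100A4.

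With the mean of each replicate number removed, IGF1R and IGFBP4 followed each other most closely among the members (Pearson r = 0.95 over 12 libraries), followed by IGFBP4 and IGFBP5 (0.86), IGFBP2 and IGFBP5 (0.79) and IGF1R and IGFBP5 (0.72). The 12 libraries share 4 treatments, so these values describe likeness of pattern only. Among 9417 genes with a symbol and a mean log2 CPM of at least 1, those most like IGF1R were ARHGEF28 (0.994), BICRAL (0.993) and SEC24D (0.993). Those most like IGFBP4 were LHFPL6 (0.996), CTIF (0.994) and FAM178B (0.992). For IGFBP5 they were AJUBA (0.979), TOX (0.966) and ARHGEF37 (0.965), and for IGFBP2 CRYAB (0.964), PEPD (0.958) and NKD1 (0.951).

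Around the family, 53 genes were listed as other IGF receptors and binding proteins, proteases of binding proteins, IGF2 mRNA-binding proteins, proteins that carry an IGFBP domain, and IGF1R signalling. Of these, 44 were tested. PDGF-BB+S100A4 changed 12 against control on groups alone (1 higher and 11 lower), and 10 were higher and 17 lower with the block. PDGF-BB changed 9 (1 higher and 8 lower), and 8 were higher and 20 lower with the block. S100A4 changed 0 in edgeR (1 at an unadjusted p under 0.05), and with the block 2 were higher and 3 lower. The shares of all tested genes called were 22% and, with the block, 56.1% for PDGF-BB+S100A4, 14.7% and 48.8% for PDGF-BB, and 0.563% and 10.7% for S100A4. The counts were near these shares, except that with PDGF-BB under the block the listed genes were called more often. Over all tested genes, calls on groups alone leaned higher, with 1643 higher and 1089 lower for PDGF-BB+S100A4 and 1131 and 699 for PDGF-BB. With the block they were nearly even, at 3426 and 3556 and at 3029 and 3046. Why the listed genes leaned lower was not tested. The median log2 change of the 44 with the block was −0.09, −0.13 and −0.02 in these 3 comparisons, beside −0.03, −0.02 and −0.02 over all tested genes.

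Of the other receptors, INSR, the insulin receptor, which also forms hybrids with IGF1R, averaged 6.17 ± 1.19 CPM with PDGF-BB+S100A4, 5.76 ± 0.641 CPM with PDGF-BB and 10.4 ± 0.137 CPM with S100A4, against 10.4 ± 0.199 CPM in control cells (SD, n = 3). It fell by 0.75 ± 0.14 with PDGF-BB+S100A4 (adjusted p = 0.0035) and by 0.85 ± 0.14 with PDGF-BB (adjusted p = 0.0026), with −0.00 ± 0.14 for S100A4 (adjusted p = 1). INSR and IGF1R thus were both lower in the PDGF-BB groups. IGF2R, which clears IGF2, was at 424 ± 73.4, 413 ± 65.0 and 446 ± 72.4 CPM in those groups, against 452 ± 51.5 CPM in control cells, and passed only with PDGF-BB under the block (−0.14 ± 0.04, adjusted p = 0.017; 0.74 on groups alone). IGFBP1 had 0 counts in all 12 libraries, which allows up to 0.097 to 0.14 CPM per library at 3 counts.

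Of 6 tested proteases and inhibitors, 1 was higher and 3 were lower under the block with PDGF-BB+S100A4 and likewise with PDGF-BB, and none passed with S100A4 in edgeR (1 at an unadjusted p under 0.05). With 6 genes, 4 called stands near the 56.1% and 48.8% of all genes called. STC2, a secreted inhibitor of PAPPA, averaged 66.9 ± 8.39 CPM with PDGF-BB+S100A4, 71.5 ± 14.3 CPM with PDGF-BB and 140 ± 39.2 CPM with S100A4, against 131 ± 31.1 CPM in control cells. It fell by 0.97 ± 0.25 with PDGF-BB+S100A4 (adjusted p = 0.018) and by 0.88 ± 0.25 with PDGF-BB (adjusted p = 0.038), and the S100A4 value did not pass (0.09 ± 0.24, adjusted p = 1). PAPPA, the protease that cuts IGFBP4, averaged 24.1 ± 11.6 CPM with PDGF-BB+S100A4, 19.4 ± 9.03 CPM with PDGF-BB and 33.5 ± 17.2 CPM with S100A4, against 30.5 ± 16.0 CPM in control cells. On groups alone PAPPA did not pass (0.71, 0.48 and 1 as adjusted p), and with the block it fell by 0.33 ± 0.10 with PDGF-BB+S100A4 (adjusted p = 0.01) and by 0.64 ± 0.10 with PDGF-BB (adjusted p = 0.00011). STC1, the related PAPPA inhibitor, had 0 counts in all 12 libraries. Under the block HTRA1, a serine protease that cuts IGFBPs, was lower by 0.09 and 0.12 with PDGF-BB+S100A4 and PDGF-BB (adjusted p = 0.033 and 0.0092), and ADAM9, a metalloprotease, was higher by 0.27 and 0.24 (adjusted p = 1.5e-05 and 5.6e-05). On groups alone neither passed, with adjusted p = 0.93 in both comparisons for HTRA1 and 0.55 and 0.65 for ADAM9.

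Of 9 tested proteins that carry an IGFBP domain, 4 were higher and 4 lower with PDGF-BB+S100A4 under the block, 5 were higher and 4 lower with PDGF-BB, and 2 were lower with S100A4. In those fits 56.1%, 48.8% and 10.7% of all genes were called, with 3426 higher and 3556 lower for PDGF-BB+S100A4 and 3029 higher and 3046 lower for PDGF-BB. CCN5, a matricellular protein known to restrain smooth muscle proliferation, fell by 0.82 ± 0.16 with PDGF-BB+S100A4 (adjusted p = 0.0041) and by 0.67 ± 0.15 with PDGF-BB (adjusted p = 0.017), and with S100A4 only under the block (−0.35 ± 0.07, adjusted p = 0.0031; 0.81 on groups alone). Its mean was 45.1 ± 6.02, 50.2 ± 9.67 and 62.8 ± 8.30 CPM in those groups, against 79.7 ± 6.70 CPM in control cells. CRIM1 fell with PDGF-BB+S100A4 (−0.34 ± 0.10, adjusted p = 0.03) and, under the block, with PDGF-BB (−0.29 ± 0.06, adjusted p = 0.0012, and 0.081 on groups alone). KAZALD1, near the detection limit at 0.284 ± 0.116 and 0.278 ± 0.0183 CPM with PDGF-BB+S100A4 and PDGF-BB, against 0.687 ± 0.125 CPM in control cells, fell by 1.26 ± 0.34 (adjusted p = 0.024) and 1.29 ± 0.33 (adjusted p = 0.028). CCN4 averaged 52.7 ± 27.5 CPM with PDGF-BB+S100A4 and 56.2 ± 31.2 CPM with PDGF-BB, against 25.0 ± 15.1 CPM in control cells, and rose under the block by 1.12 ± 0.07 (adjusted p = 2.3e-08) and 1.19 ± 0.07 (adjusted p = 2.4e-08). On groups alone CCN4 did not pass (adjusted p = 0.33 and 0.34). CCN1 rose under the block by 0.43 ± 0.06 (adjusted p = 1.8e-05) and 0.40 ± 0.06 (adjusted p = 4e-05), and HTRA3 with PDGF-BB by 0.25 ± 0.07 (adjusted p = 0.0083). These did not pass on groups alone, with adjusted p = 0.1 and 0.16 for CCN1 and 0.23 for HTRA3 with PDGF-BB. ESM1, a secreted proteoglycan chosen after its values were seen, averaged 692 ± 756 CPM with PDGF-BB+S100A4 and 470 ± 589 CPM with PDGF-BB, against 178 ± 251 CPM in control cells. Its adjusted p was 0.43 and 0.65 in the fit without the block, and with the block it rose by 2.54 ± 0.23 (5.8-fold, adjusted p = 6.3e-07) and 1.70 ± 0.23 (3.25-fold, adjusted p = 3.3e-05).

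Of 24 tested genes of IGF1R signalling, 4 were higher and 9 lower with PDGF-BB+S100A4 under the block, 2 were higher and 11 lower with PDGF-BB, and 2 were higher and 1 lower with S100A4. The 13 called with PDGF-BB+S100A4 and the 13 called with PDGF-BB are near the 56.1% and 48.8% of all genes. Downstream of the receptor, the docking protein GAB1 averaged 11.0 ± 1.85 CPM with PDGF-BB+S100A4, 9.46 ± 1.65 CPM with PDGF-BB and 24.0 ± 0.967 CPM with S100A4, against 20.1 ± 2.50 CPM in control cells. GAB1 fell by 0.87 ± 0.15 with PDGF-BB+S100A4 (adjusted p = 0.0028) and by 1.09 ± 0.15 with PDGF-BB (adjusted p = 0.0013), and rose by 0.26 ± 0.07 with S100A4 under the block (adjusted p = 0.036; 1 on groups alone). The adaptor SHC1 rose by 0.36 ± 0.05 with PDGF-BB+S100A4 (adjusted p = 0.0012) and by 0.35 ± 0.05 with PDGF-BB (adjusted p = 0.0023). FOXO3 and FOXO4, transcription factors that AKT keeps out of the nucleus, fell with PDGF-BB+S100A4 (−0.72 ± 0.16, adjusted p = 0.0088, and −0.88 ± 0.17, adjusted p = 0.0052) and with PDGF-BB (−0.73 ± 0.16, adjusted p = 0.011, and −0.73 ± 0.17, adjusted p = 0.019). FOXO4 also fell with S100A4, but passed only under the block (−0.24 ± 0.06, adjusted p = 0.023).

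The insulin receptor substrates differed from each other in level changes. IRS1 did not pass in any comparison with control: its mean was 16.6 ± 1.15 CPM with PDGF-BB+S100A4, 16.8 ± 2.60 CPM with PDGF-BB and 14.6 ± 1.63 CPM with S100A4, against 16.7 ± 2.49 CPM in control cells. IRS2 averaged 7.42 ± 2.04, 6.63 ± 1.8 and 12 ± 3.13 CPM in those groups, against 11.7 ± 0.953 CPM in control cells, and fell under the block with PDGF-BB+S100A4 (−0.69 ± 0.13, adjusted p = 0.00061) and PDGF-BB (−0.84 ± 0.13, adjusted p = 0.00013). On groups alone its adjusted p was 0.1 and 0.064. The kinase PDPK1, which phosphorylates AKT, rose slightly under the block with PDGF-BB+S100A4 (0.16 ± 0.04, adjusted p = 0.0034) and PDGF-BB (0.14 ± 0.04, adjusted p = 0.009), as TSC2 (0.14 ± 0.05, adjusted p = 0.037) and the IGF2 mRNA-binding protein IGF2BP2 (0.17 ± 0.06, adjusted p = 0.024) did with PDGF-BB+S100A4. None of these rises passed on groups alone, with adjusted p = 0.051 and 0.11 for PDPK1, 0.22 for TSC2 and 0.72 for IGF2BP2.

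**Figure D5:**
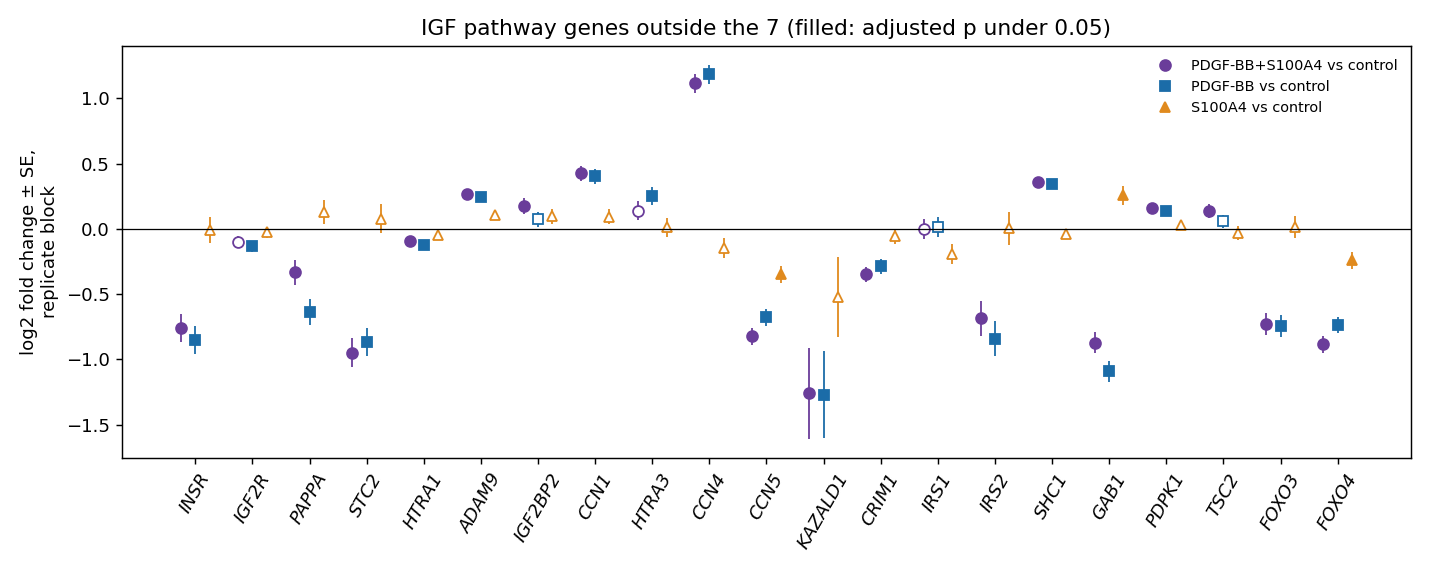
Log2 fold changes ± SE against control (vertical axis) with the replicate block for 21 named genes of the IGF pathway outside the 7, under PDGF-BB+S100A4, PDGF-BB and S100A4. Filled points had an adjusted p under 0.05. With S100A4 the values lie near 0 for most genes, and the filled S100A4 points are CCN5, GAB1 and FOXO4.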

How the data were processed

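What the authors deposited is a table of raw read counts per gene in whole numbers, from single-end reads of 100 nt. The tools named in the submitters' processing notes are CASAVA 1.8.2, STAR 2.4 and featureCounts 1.4.6, with the build Sscrofa11.1. Which annotation release was used, whether strand was used, and how reads matching several places were counted is not given in the sources used here, so reads shared with overlapping or antisense genes are uncertain. Positions are those of RefSeq genes of Sscrofa11.1, matched by symbol.

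A filter by filterByExpr (edgeR 4.0.16, minimum count 10) left 12444 genes, and TMM scaled the libraries. At the lowest total, 1 CPM is about 21.5 counts. The quasi-likelihood test was fitted to 4 group means over all 12 libraries, two-sided, with Benjamini-Hochberg adjustment over all genes tested and a threshold of 0.05. edgeR's common coefficient of biological variation was 5.14% with the replicate block and 27.2% without it. There were 7 comparisons: 3 with control, 3 between treatments, and the interaction. For log2 CPM the prior count was 2. The scripts ran in R 4.3.3 and were tried on simulated data.

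Replicate numbers paired the libraries by the data, not by the labels. Across genes, deviations from the means of the groups had r = 0.746 to 0.908 in 18 same-number pairs and −0.676 to 0.136 in 36 other pairs, and 12 of 12 libraries correlated best with their own number. Deviations cancel within a group, so the low values of the other pairs partly follow from the high same-number values. Within groups, no library repeated another within sampling noise (chi-square per gene 22.9 to 162). Limits for counts of 0 cover counting error only.

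The members and gene lists were chosen with earlier results of these data known. Named beside the members were, from each pathway list, up to 3 genes per direction with the smallest adjusted p on groups alone among those called by either fit, and IGF2R, INSR, PAPPA, STC1, STC2, IRS1 and IRS2. Genes of like pattern were the 3 with the highest r for each of 4 members. Some listed genes, like IGF2 and IGFBP3, are not analysed here. Alternatives were RLE and upper-quartile scaling, DESeq2 1.42.0, no filter, the block, and leaving out libraries.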

Additional observations from a re-analysis of the deposited data

Results flagged for a closer look

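With the replicate block, the difference between the log2 effects of S100A4 on IGFBP5 with and without PDGF-BB passed: the effect in its presence minus that in its absence was 0.43 ± 0.07 (edgeR adjusted p = 0.028). The call was kept in 6 of 15 fits with libraries left out, and the highest adjusted p was 0.67 without the libraries numbered 3. S100A4 changed IGFBP5 by −0.19 in the presence of PDGF-BB, against −0.62 in its absence, and the −0.19 was called in 7 of 15 such fits. The difference was positive in all 3 replicate pairs. On groups alone it was 0.41 ± 0.60 and did not pass (adjusted p = 1).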

How the results depend on the processing

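With the replicate block 4, 3 and 4 members were called against control for PDGF-BB, S100A4 and PDGF-BB+S100A4, in place of 1, 0 and 1. Between treatments it called 1 for PDGF-BB+S100A4 against PDGF-BB, 4 for PDGF-BB+S100A4 against S100A4 and 3 for PDGF-BB against S100A4, and 1 for the interaction, in place of 0, 1, 0 and 0. The block moved the counts over all genes likewise: 6075, 1336, 6982, 888, 5948, 5367 and 14 genes were called for PDGF-BB, S100A4 and PDGF-BB+S100A4 against control, the 3 pairs of treatments in the order above and the interaction, in place of 1830, 70, 2732, 34, 1862, 1382 and 0. DESeq2 called 2 members for PDGF-BB+S100A4 against control, with IGFBP4 added (−1.15 ± 0.44, DESeq2 adjusted p = 0.038), and DESeq2 and upper-quartile scaling each called 1, IGF1R, for PDGF-BB against S100A4 (DESeq2 adjusted p = 0.016, edgeR with upper-quartile scaling 0.047). Over all genes DESeq2 called 205 for S100A4 against control, 123 for PDGF-BB+S100A4 against PDGF-BB, 1 for the interaction, and 60 for the interaction with the block.

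Upper-quartile scaling turned IGFBP7 to −0.029 for PDGF-BB and −0.045 for PDGF-BB+S100A4 against control, neither called. It also moved the share of called genes that were higher against control to 49% for PDGF-BB and 46.1% for PDGF-BB+S100A4, in place of 61.8% and 60.1%, with medians over all genes of −0.067 and −0.098. No member call against control changed with RLE scaling, upper-quartile scaling or no filter. With DESeq2 or upper-quartile scaling added to the block, the same numbers were called, except 3 in place of 4 for PDGF-BB+S100A4 against S100A4 and 2 in place of 3 for PDGF-BB against S100A4 with DESeq2.

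Leaving out libraries on groups alone, the members called ranged over 0 to 2 for PDGF-BB and for PDGF-BB+S100A4 against control and for PDGF-BB+S100A4 against S100A4, and over 0 to 1 for PDGF-BB against S100A4. With the block they ranged over 0 to 1 for PDGF-BB+S100A4 against PDGF-BB and for the interaction. On groups alone, 10 to 2507 of all genes were called for PDGF-BB+S100A4 against S100A4 and 5 to 1808 for PDGF-BB against S100A4. PDGF-BB+S100A4 against S100A4 lost IGF1R without PDGF-BB+S100A4 replicate 1 (−0.63, adjusted p = 0.067) or 2 (−0.52, 0.066), S100A4 replicate 1 (−0.63, 0.067) or 3 (−0.54, 0.08), or all libraries numbered 1 (−0.62, 0.32) or 3 (−0.65, 0.06). Uncalled values crossed 0: for PDGF-BB against control the log2 change lay between −0.646 and 0.862 for IGF1, −0.433 and 0.099 for IGFBP2, −0.035 and 0.203 for IGFBP6, and −0.143 and 0.182 for IGFBP7. For S100A4 against control it lay between −0.61 and 0.761 for IGF1, −0.194 and 0.004 for IGF1R, −0.484 and 0.023 for IGFBP2, and −0.167 and 0.189 for IGFBP7. For PDGF-BB+S100A4 against control it lay between −1.074 and 0.584 for IGF1, −0.437 and 0.077 for IGFBP2, −0.01 and 0.183 for IGFBP6, and −0.104 and 0.196 for IGFBP7. For IGFBP5 it lay between −0.567 and 0.201 for PDGF-BB+S100A4 against PDGF-BB and between −0.547 and 0.257 against S100A4. No value called under the block changed sign with libraries left out. Where a call differs between settings, the cause was not tested. Of the measured members, depth limits IGF1 most, at 9 to 72 counts. IGFBP1 and STC1 had 0 counts in all 12 libraries, and the reason was not tested.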
